A study of Mus musculus with 36 samples.

Results

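Apaf1, Casp9, Casp6, Casp2, Pidd1, Casp8, Casp1 and Xiap encode caspases, the proteases of cell death and inflammation, the platforms that switch caspases on, and a protein that blocks them. These 8 genes were picked by symbol out of the 27179 mouse genes in the deposited count table, and all 8 were among the 12321 genes that passed the filter on low counts. RNA sequencing covered 36 libraries of the mouse lymphoma lines AH47A, 287 and 621, labelled as Em-myc, a background in which B cells carry a Myc transgene under an immunoglobulin enhancer. A mutant TRP53 protein (G280, I192S, R246Q, R270H or V170M in the labels) or a negative control was expressed in the cells, beside wild-type TRP53 in all of them per the design text. Every construct was sampled in every line with nutlin-3a and untreated, which gave 12 groups of 3 libraries, 1 from each line. Nutlin-3a keeps MDM2 from binding p53 and was given at 5 µM for 12 hours, together with 25 µM of QVD-OPH, an inhibitor of most caspases. The sources used here do not give whether untreated cultures also had QVD-OPH, so its effect and that of nutlin cannot be told apart. The mutant proteins are human per the design text, whereas counting was on genes of the mouse. No line has a second culture of the same group in the labels, so p-values measure the spread between these libraries only.

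Total counts ran from 5404113 to 9689091 in nutlin libraries and from 6584334 to 10718302 in untreated libraries. Trp53 had 446 to 2024 CPM (counts scaled by the TMM library size) in mutant nutlin libraries and 693 to 2587 CPM in mutant untreated libraries. The control libraries had 261 to 446 CPM of Trp53 with nutlin and 206 to 291 CPM untreated. The mean of each mutant on the mouse gene was thus above that of the control in both states, although the design text calls the mutant proteins human, and the sources used here do not settle the species of the constructs. Mdm2, a p53 target, averaged 742 ± 589 CPM in the control with nutlin and 111 ± 51.1 CPM in the untreated control (SD, n = 3). The 8 B cell markers examined were detected in every line, with summed levels of 1176 to 1701 CPM in nutlin libraries and 1460 to 2099 CPM in untreated libraries. With nutlin 6 of these 8 markers fell and 1, Ptprc, rose in the mean of all constructs (36.1% and 32.8% of all genes did so), and the part of this shift in the results below was not tested.

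Mitochondria that are breached release cytochrome c, which binds APAF1, and APAF1 then assembles into the apoptosome, a wheel that recruits and activates caspase-9. Caspase-9 in turn cuts executioner caspases, and XIAP binds and blocks caspase-9. Caspase-6, which is activated downstream, is known for cutting lamins. The PIDDosome is a second platform, in which PIDD1 and the adaptor RAIDD activate caspase-2, a protease that can cut MDM2. Caspase-8 starts death receptor signalling, and caspase-1 is activated by inflammasomes and cuts interleukin precursors. Apaf1 and Pidd1 are known as p53 target genes.

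The caspases share a catalytic cysteine, and the stretches around it are printed to show what relates the 5 protease genes measured here. They were read from the longest open reading frames of GENCODE M21 transcripts (GRCm38), 5′ to 3′ on the coding strand, with the cysteine codon in capitals.
Casp9: caggccTGCggtggt
Casp6: caggccTGTcggggt
Casp2: caagcaTGTcgtgga
Casp8: caggctTGCcaagga
Casp1: caggcaTGCcgtgga
The capitals mark residue 325 of the Casp9 reading frame, 146 of Casp6, 320 of Casp2, 382 of Casp8 and 284 of Casp1. Casp9, Casp8 and Casp1 use TGC for it, and Casp6 and Casp2 use TGT.

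The windows before the starts of Apaf1, Pidd1 and Casp9 are printed because these 3 genes changed most with nutlin in the control, which was known when they were picked. Each holds 250 bases, 5′ to 3′ on the gene's strand, from RefSeq (GRCm38.p6). Apaf1 lies at chr10:91082744-91082993 on the minus strand, Pidd1 at chr7:141444026-141444275 on the minus strand and Casp9 at chr4:141793362-141793611 on the plus strand. The window of Pidd1 lies inside the span of its RefSeq gene.
Apaf1: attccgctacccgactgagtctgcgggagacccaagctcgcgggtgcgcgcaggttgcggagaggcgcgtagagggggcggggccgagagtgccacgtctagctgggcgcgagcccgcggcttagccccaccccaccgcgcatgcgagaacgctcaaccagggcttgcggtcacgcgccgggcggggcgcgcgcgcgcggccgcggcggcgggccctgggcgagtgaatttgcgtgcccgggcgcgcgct
Pidd1: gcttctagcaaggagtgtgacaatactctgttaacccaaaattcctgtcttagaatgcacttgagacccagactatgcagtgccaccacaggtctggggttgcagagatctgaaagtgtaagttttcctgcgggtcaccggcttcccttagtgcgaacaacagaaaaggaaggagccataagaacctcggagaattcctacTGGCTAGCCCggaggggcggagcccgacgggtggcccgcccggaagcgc
Casp9: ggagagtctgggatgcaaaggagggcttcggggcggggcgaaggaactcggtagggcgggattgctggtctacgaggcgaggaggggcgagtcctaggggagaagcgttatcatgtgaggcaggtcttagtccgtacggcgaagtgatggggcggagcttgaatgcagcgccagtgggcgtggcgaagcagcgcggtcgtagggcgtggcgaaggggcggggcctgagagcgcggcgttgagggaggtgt
Capitals in the Pidd1 window mark a match to the p53 half-site with 1 mismatch outside its core, from base -49 to base -40 relative to the start. Such a match is in 34.4% of the 32817 mouse windows of this length, and windows of Casp2, Casp1 and Xiap hold one too, while those of Apaf1, Casp9, Casp6 and Casp8 do not. The exact half-site, in 7.12% of windows, is in none of the windows of the 8 genes. GGGCGG, searched on both strands and in 32.7% of windows, occurs 4 times in the Casp9 window, 2 times in that of Apaf1 and 2 times in that of Pidd1. These matches describe letters and not bound sites.

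Levels of different genes were compared per length, as RPKM, that is CPM per kilobase of the gene length in the deposited table. With nutlin, Casp2 averaged 38.7 ± 7.12 RPKM, Pidd1 26.1 ± 10.7, Casp8 21.3 ± 3.02, Apaf1 18.5 ± 8.76 and Xiap 17.1 ± 4.76 RPKM (SD, n = 18 libraries each). Casp9 averaged 4.40 ± 1.55 RPKM with nutlin, Casp6 3.46 ± 0.599 and Casp1 2.17 ± 1.93 RPKM. Untreated, the order was Casp2 at 36.7 ± 3.66 RPKM, Casp8 at 21.9 ± 3.44, Pidd1 at 15.7 ± 1.73, Xiap at 13.4 ± 1.21, Apaf1 at 12.0 ± 2.94, Casp9 at 7.40 ± 0.804, Casp6 at 3.89 ± 0.780 and Casp1 at 1.40 ± 1.39 RPKM. Casp2 had the highest mean in both states, beyond the SD of the next gene in untreated libraries but not in nutlin libraries. Pidd1, Xiap and Apaf1 overlapped one another within their SD in both states. Pidd1 had a higher mean than Casp8 in nutlin libraries, where the pair overlapped, and a lower one in untreated libraries, where it did not. Casp9 exceeded Casp6, and Casp6 exceeded Casp1, beyond their SD in untreated libraries only.

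**Figure D1:**
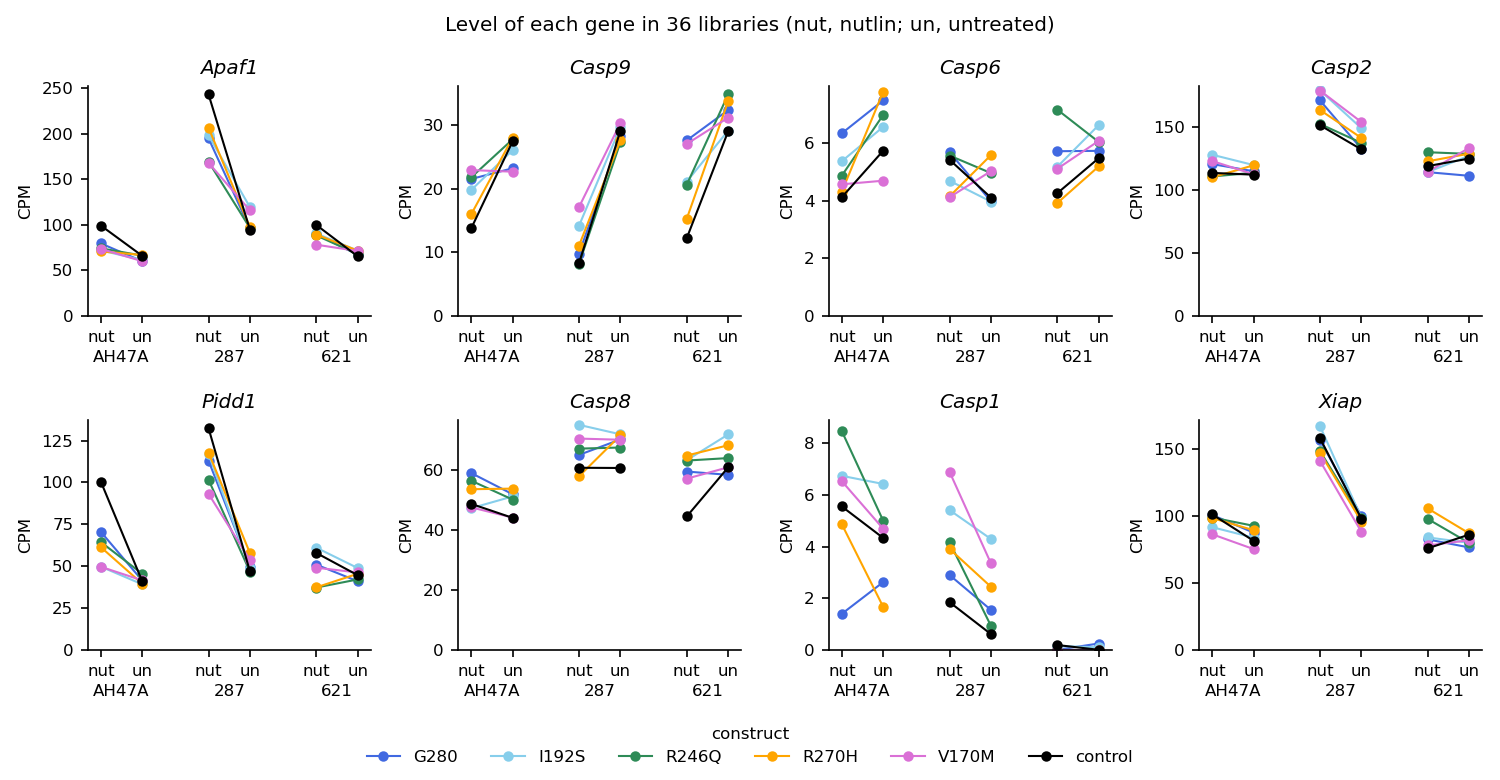
Level of each of the 8 genes (y axis, CPM) in the 36 libraries, nutlin left and untreated right within each line; lines join the libraries of 1 construct (colours). Apaf1 and Pidd1 points in line 287 lie between 168 and 243 CPM and between 93.2 and 132 CPM with nutlin, all above the untreated ones, and Casp1 is close to 0 in line 621.

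The nutlin response was read from a quasi-likelihood model (edgeR) with the 12 groups and cell line as a block, and a gene is called where its adjusted p (Benjamini-Hochberg over the 12321 genes) is under 0.05. Averaged over the 6 constructs, 4 of the 8 genes rose (Apaf1, Pidd1, Xiap and Casp1), 1 fell (Casp9) and 3 were not called (Casp6, Casp2 and Casp8). In that comparison 69.0% of all genes were called, 32.8% upward and 36.1% downward, so that 5 of 8 is near the background. The median log2 fold change was 0.19 over the 8 genes and -0.03 over all genes tested. These p-values count the libraries of a line as separate although they share that line's response. With 1 value a line instead (limma over 3 lines, an alternative added after the data had been seen), 7.36% of all genes and none of the 8 members were called, against 3 of the 8 at an unadjusted p under 0.05. DESeq2 with the first design called 5 of the 8, as edgeR did, and its share of all genes is not given here. Fewer cells of a type and less RNA per cell cannot be told apart in such bulk samples.

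Apaf1, the scaffold of the apoptosome (RefSeq gene chr10:90989311-91082743, minus strand, GRCm38.p6), was higher with nutlin in all 18 pairs of libraries of the same line and construct. Its level in line 287 was 168 CPM at the lowest, 196 at the median and 243 at the highest with nutlin, against 94.4, 96.65 and 119 CPM untreated. In line 621 it was 77.95, 89.4 and 99.7 CPM with nutlin, against 65.2, 69.3 and 71.5 CPM untreated. In AH47A it was 70.5, 73.7 and 99.0 CPM with nutlin, against 59.7, 63.3 and 66.7 CPM untreated. In no line did the 2 states overlap. For this and the separations given below, the share of all genes so separated was not counted. In the line-specific response fit described below, 43.6% (AH47A) to 71.9% (287) of all genes were called in single lines. The mean response of Apaf1 was a log2 fold change of 0.54 ± 0.07 (SE; edgeR adjusted p = 8.44e-08), or 1.45-fold, and with lines as replicates it was 0.53 ± 0.16 (limma adjusted p = 0.0766). The first 7 bases of Apaf1 overlap Ikbip, which had 1630 counts in all against 29006 for Apaf1.

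Pidd1, the core of the PIDDosome (chr7:141438113-141447565, minus strand), was higher with nutlin in 16 of 18 pairs. Line 287 had 93.2, 115 and 132 CPM (lowest, median and highest) with nutlin, against 46.7, 49.1 and 57.8 CPM untreated. AH47A had 49.6, 62.9 and 100.5 CPM with nutlin, against 39.1, 41.1 and 45.4 CPM untreated. Line 621 had 37.2, 49.96 and 61.0 CPM with nutlin, against 40.95, 45.0 and 48.9 CPM untreated. The states were thus apart in 287 and AH47A and overlapped in 621, where the R246Q and R270H libraries were lower with nutlin. The mean response was a log2 fold change of 0.65 ± 0.10 (edgeR adjusted p = 3.86e-06), or 1.57-fold, and 0.63 ± 0.20 with lines as replicates (limma adjusted p = 0.0899).

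Casp9, the initiator caspase of the apoptosome (chr4:141793612-141815978, plus strand), moved the other way, being lower with nutlin in 17 of 18 pairs. Line 287 had 8.195, 10.4 and 17.1 CPM (lowest, median and highest) with nutlin, against 27.4, 28.7 and 30.4 CPM untreated. Line 621 had 12.2, 20.9 and 27.6 CPM with nutlin, against 29.1, 31.8 and 34.9 CPM untreated. AH47A had 13.8, 20.7 and 22.95 CPM with nutlin, against 22.7, 26.8 and 28.1 CPM untreated. The states were apart in 287 and 621, and in AH47A they overlapped through the V170M pair. The mean log2 fold change was -0.81 ± 0.10 (edgeR adjusted p = 6.14e-08), or 1.76-fold lower, and -0.82 ± 0.20 with lines as replicates (limma adjusted p = 0.0552). Cela2a, which overlaps Casp9 by 1025 bases, had 0 counts.

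Scaffold and initiator therefore shifted in opposite directions, and their ratio within a library does not depend on library size. The ratio of Apaf1 to Casp9 RPKM in line 287 was 5.83 at the lowest, 11.5 at the median and 17.5 at the highest with nutlin, against 1.92, 2.09 and 2.38 untreated. In 621 it was 1.71, 2.54 and 4.85 with nutlin, against 1.15, 1.29 and 1.45 untreated. In AH47A it was 1.90, 2.17 and 4.27 with nutlin, against 1.39, 1.41 and 1.565 untreated. No nutlin library overlapped the untreated ones of its line. Since Apaf1 rose and Casp9 fell in these same libraries, the ratio is no separate test, nor are the ratios given below. The control had the highest ratio of each line with nutlin and V170M the lowest.

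**Figure D2:**
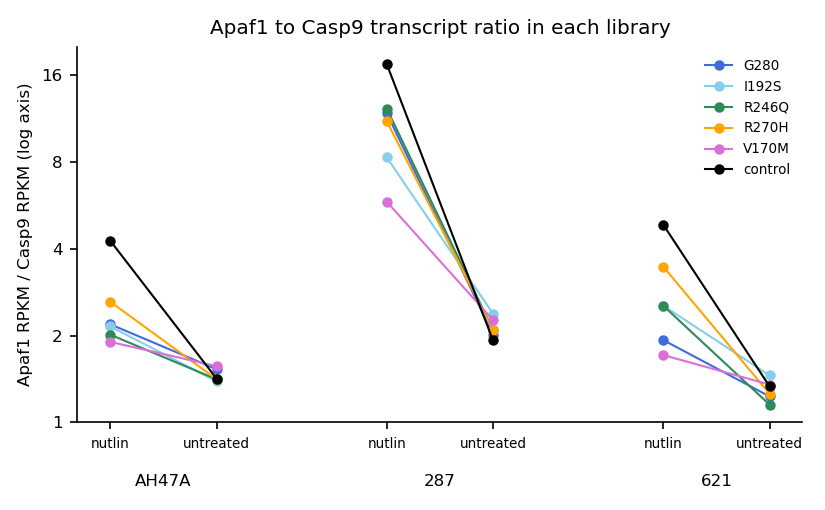
Ratio of Apaf1 to Casp9 transcript level (y axis, RPKM over RPKM, log axis) in each library, nutlin left and untreated right within each line; colours are constructs. Every nutlin point lies above the untreated points of its line, up to 17.5 in the control library of 287, against 1.92 in its untreated counterpart.

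Xiap, which encodes an inhibitor of caspases (chrX:42059613-42109664, plus strand), was higher with nutlin in 16 of 18 pairs. Line 287 had 141, 152 and 167 CPM (lowest, median and highest) with nutlin, against 87.9, 97.8 and 99.7 CPM untreated. In AH47A the range was 86.1 to 101 CPM with nutlin, against 75.05 to 92.4 CPM untreated, and in 621 it was 75.65 to 105 CPM, against 76.3 to 86.8 CPM. The states were apart only in 287 among the 3 lines. The mean log2 fold change was 0.31 ± 0.06 (edgeR adjusted p = 7.33e-05), and 0.31 ± 0.15 with lines as replicates (limma adjusted p = 0.203). The ratio of Xiap to Casp9 RPKM had a median of 8.71 in 287, 2.585 in 621 and 2.76 in AH47A with nutlin, against 2.02, 1.54 and 1.935 untreated. It did not overlap between nutlin and untreated libraries in 287.

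Casp1, the inflammasome caspase (chr9:5298517-5307281, plus strand), was barely detected in line 621. The 6 nutlin libraries of 621 held 2 counts in all and its 6 untreated libraries 3 counts, with 4 of 6 at 0 in each state. In AH47A it had 256 counts with nutlin and 193 untreated, and in 287 it had 204 counts with nutlin and 117 untreated. Scaled to library size, untreated AH47A stood to untreated 621 in a ratio of 76.1 (95% exact interval 25.6 to 372) and untreated 287 to untreated 621 in a ratio of 41.6 (13.9 to 204). These intervals cover counting error only. The mean nutlin response was 0.64 ± 0.24 on the log2 scale (edgeR adjusted p = 0.0194), with nearly all counts from AH47A and 287. In the fit with line-specific responses described below, Casp1 had 0.95 in 287 (adjusted p = 0.0104) and 0.39 in AH47A (0.31, not called). The call of the mean response ended in that fit (0.44, adjusted p = 0.546) and without line 287 (0.37, 0.241). It also ended without the AH47A control nutlin library (0.55, 0.059) or the 287 G280 nutlin library (0.47, 0.0869).

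Casp6, an executioner (chr3:129901415-129914112, plus strand), was low, at 3.91 to 7.16 CPM in nutlin libraries and 3.965 to 7.79 CPM in untreated ones. Its mean log2 fold change was -0.17 ± 0.09 (edgeR adjusted p = 0.0836). It was called when line 287 was left out (-0.29, adjusted p = 0.0339) and when any 1 of 5 single libraries was. Casp6 overlaps 2 long noncoding RNAs that are not used here. Casp2, the PIDDosome's caspase (chr6:42264902-42282508, plus strand), had 109.7 to 179 CPM with nutlin and 111 to 153.5 CPM untreated, a log2 fold change of 0.06 ± 0.04 (adjusted p = 0.166). Casp2 was called without line 621 (0.12, adjusted p = 0.0132) and without the I192S nutlin library of 621 (0.09, adjusted p = 0.0487). The ratio of Pidd1 to Casp2 RPKM, platform to protease, had a median of 0.794 in 287, 0.682 in AH47A and 0.524 in 621 with nutlin, against 0.421, 0.434 and 0.425 untreated. It did not overlap between the states in 287. In AH47A it overlapped narrowly (lowest 0.465 with nutlin, highest 0.4785 untreated). In 621 it was 0.3425 to 0.6397 with nutlin against 0.3912 to 0.4601 untreated, and R246Q and R270H had lower ratios with nutlin. Casp8, the death receptor caspase (chr1:58795233-58847503, plus strand), had 44.6 to 75.2 CPM with nutlin and 44.1 to 72.0 CPM untreated, a log2 fold change of -0.03 ± 0.04 (95% interval -0.13 to 0.06, adjusted p = 0.512). The 2 states overlapped for all 3 genes.

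The lines differed in how far these genes moved. A second edgeR model gave every line its own nutlin response (the line-specific response fit). In it, an F test over the 3 lines called 5 of the 8 genes (Apaf1, Casp9, Casp2, Pidd1 and Xiap) and 60.3% of all genes. Constructs stand in for replicates within a line in this fit. In 287, where 71.9% of all genes were called, 5 of the 8 rose and Casp9 fell. The log2 fold changes there were 0.93 ± 0.06 for Apaf1 (1.90-fold, adjusted p = 2.01e-14), 1.15 ± 0.10 for Pidd1 (2.22-fold, 4.03e-11) and 0.67 ± 0.06 for Xiap (1.59-fold, 6.46e-11). Those of Casp9 were -1.35 ± 0.11 (2.56-fold lower, 4.59e-12), of Casp2 0.24 ± 0.05 (0.00013) and of Casp1 0.95 ± 0.33 (0.0104). The Casp1 call in 287 ended without its G280 nutlin library (0.70, adjusted p = 0.0697) or its R246Q untreated library (0.72, 0.0582).

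In AH47A, with 43.6% of all genes called, 3 of the 8 rose and 2 fell. The log2 fold changes were 0.30 ± 0.06 for Apaf1 (adjusted p = 0.000247), 0.65 ± 0.10 for Pidd1 (1.11e-05), 0.18 ± 0.06 for Xiap (0.0201), -0.45 ± 0.10 for Casp9 (0.000915) and -0.42 ± 0.14 for Casp6 (0.0155). The Xiap call ended without any of 4 AH47A libraries (highest adjusted p = 0.066, without the control nutlin library) or without the control construct (adjusted p = 0.0798). The Casp6 call ended without any of 4 AH47A libraries (highest adjusted p = 0.0728, without the R246Q nutlin library) or without the R270H construct (0.0897). In 621, with 55.0% of all genes called, Apaf1 rose by 0.37 ± 0.06 (7.39e-06) and Casp9 fell by 0.66 ± 0.10 (4.03e-06). Pidd1 had a log2 fold change of 0.12 ± 0.10 (95% interval -0.10 to 0.34, adjusted p = 0.346) and Xiap of 0.09 ± 0.06 (0.24) in 621.

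**Figure D3:**
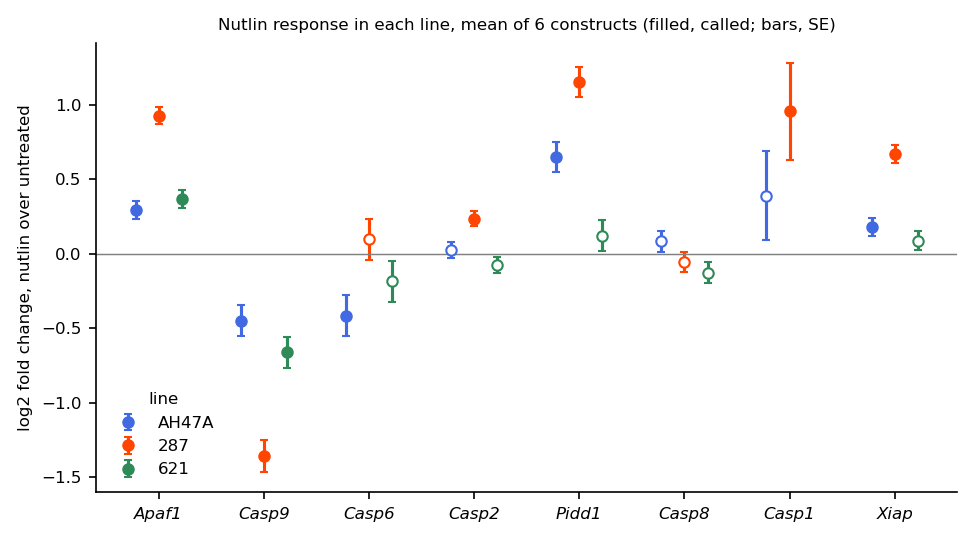
Log2 fold change of nutlin over untreated (y axis) of each of the 8 genes in the 3 lines, from the line-specific response fit; points are the mean of 6 constructs, bars 1 standard error, filled points were called. Line 287 has the largest changes of Apaf1 (0.93), Pidd1 (1.15), Xiap (0.67) and Casp9 (-1.35) among the 3 lines.

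Differences between pairs of lines were tested in the same fit. The response of 287 exceeded that of AH47A by 0.63 ± 0.08 (log2) for Apaf1 (adjusted p = 4.75e-07), by 0.50 ± 0.14 for Pidd1 (0.005) and by 0.49 ± 0.09 for Xiap (3.18e-05), and that of Casp9 differed by -0.91 ± 0.15 (1.32e-05). In this pair 46.9% of all genes were called. Casp2 (0.21 ± 0.07, adjusted p = 0.0171) and Casp6 (0.51 ± 0.20, 0.0331) were called as well. The Casp2 call ended without the G280 construct (0.0565) or R270H (0.0667). The Casp6 call ended without any 1 of 5 constructs (adjusted p from 0.0513 to 0.116), with no filter on low counts (0.0687) and in DESeq2 (0.0678). The response of 621 minus that of 287 was -0.56 ± 0.08 for Apaf1 (3.52e-06), -1.03 ± 0.14 for Pidd1 (1.58e-06), -0.58 ± 0.09 for Xiap (3.8e-06), 0.69 ± 0.15 for Casp9 (0.000402) and -0.31 ± 0.07 for Casp2 (0.000794), with 41.4% of all genes called. Between 621 and AH47A, Pidd1 alone of the 8 was called (-0.53 ± 0.15, adjusted p = 0.00668), beside 31.6% of all genes. For Apaf1 that difference was 0.07, with a 95% interval from -0.10 to 0.25. Mdm2 had log2 responses of 2.66 in 287, 1.64 in AH47A and 1.64 in 621.

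Untreated, all 8 genes differed between the lines (edgeR F test, highest adjusted p = 0.0395, for Pidd1), as did 79.3% of all genes. Apaf1 was highest in 287, at 103 ± 11.2 CPM, with 68.9 ± 2.70 in 621 and 63.1 ± 3.29 CPM in AH47A (SD, n = 6 constructs each). Casp8 was lowest in AH47A, at 49.3 ± 4.15 CPM, with 68.8 ± 4.22 in 287 and 64.2 ± 5.12 CPM in 621. Markers of other cell types were low, and the myeloid sum moved with the treatment in 287 and AH47A. Summed myeloid markers reached 34.3 to 54.0 CPM in 287 with nutlin against 14.4 to 23.1 CPM untreated. In AH47A they reached 9.22 to 27.0 CPM with nutlin against 5.1 to 7.28 CPM untreated. In 621 the states overlapped, at 5.99 to 15.4 CPM with nutlin against 3.78 to 6.53 CPM untreated. Summed T cell markers reached 14.7 to 21.8 CPM in 287 with nutlin against 4.85 to 6.59 CPM untreated, and they overlapped in the other lines. The myeloid sum was mostly Itgam and the T cell sum mostly Zap70. Itgam rose in each line, by 2.05 in AH47A, 1.43 in 287 and 2.24 in 621 (log2, line-specific response fit). The defining T cell genes Cd3d, Cd3e, Cd3g, Cd4 and Cd8a held 10, 2, 4, 0 and 2 counts in all 36 libraries together, and the myeloid genes Csf1r, Lyz2, Mpo and Adgre1 held 60, 13, 7 and 4. The sixth myeloid marker, Cd68, held 1008 counts and was at 0 in no library. It rose in the control (1.155 ± 0.26 on the log2 scale, edgeR adjusted p = 0.00119) and had 0.03 ± 0.11 in the mean of the 6 constructs (0.82). The part of these markers in the line differences was not tested.

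The nutlin response was then read for each construct. In the control, where 42.7% of all genes were called, Apaf1 and Pidd1 rose and Casp9 fell, and the other 5 genes were not called. Apaf1 had 99.0 CPM in AH47A, 243 in 287 and 99.7 in 621 with nutlin, against 65.65, 94.4 and 65.2 CPM untreated (log2 0.86 ± 0.16, edgeR adjusted p = 0.000197). Casp9 had 13.8, 8.25 and 12.2 CPM in the same order with nutlin, against 27.5, 29.2 and 29.1 CPM untreated (-1.34 ± 0.25, adjusted p = 0.000163). Pidd1 had 100.5, 132 and 57.9 CPM with nutlin, against 40.9, 46.8 and 44.6 CPM untreated (1.07 ± 0.25, adjusted p = 0.00147). Nutlin and untreated controls were apart for all 3 genes. Without AH47A, the Pidd1 call was lost narrowly (0.93, adjusted p = 0.0511).

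With V170M, in which 8.22% of all genes were called, none of the 8 was, and DESeq2 called none. None of the 8 had an unadjusted p under 0.05 in edgeR, against 3258 genes in all. Apaf1 had 73.4 CPM in AH47A, 168 in 287 and 77.95 in 621 with nutlin, against 59.8, 116 and 71.0 CPM untreated (log2 0.33 ± 0.16, adjusted p = 0.191). Casp9 had 22.95, 17.1 and 27.1 CPM with nutlin, against 22.7, 30.4 and 31.2 CPM untreated (-0.36 ± 0.24, adjusted p = 0.33). Pidd1 had 49.6, 93.2 and 49.0 CPM with nutlin, against 41.5, 53.7 and 46.2 CPM untreated (0.38 ± 0.25, adjusted p = 0.34). For V170M the line-specific response fit called Apaf1 (0.31, edgeR adjusted p = 0.00563) and Xiap (0.27, 0.0221), beside 29.2% of all genes.

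With the other 4 mutants, more genes were called than with V170M and fewer than in the control. With G280, 17.4% of all genes were called, and Apaf1 (0.62 ± 0.16, adjusted p = 0.0104) and Pidd1 (0.77 ± 0.25, 0.0347) rose. With I192S, at 24.9% of all genes, Apaf1 rose (0.45 ± 0.16, 0.0409) and Casp9 fell (-0.66 ± 0.24, 0.0433), as they did with R246Q, at 21.6% (Apaf1 0.45 ± 0.16, 0.047; Casp9 -0.86 ± 0.24, 0.0132). With R270H, at 30.2%, Apaf1 rose (0.51 ± 0.16, 0.0197), and Casp9 (-1.09 ± 0.24, 0.00183) and Casp6 (-0.57 ± 0.21, 0.0445) fell. Each of these calls in the 4 mutants ended when 1 or more lines were left out: Apaf1 without 287 had adjusted p from 0.0565 (G280) to 0.222 (R270H), and Casp9 without 621 had 0.0825 (R270H), 0.135 (R246Q) and 0.21 (I192S). The G280 call of Pidd1 ended without AH47A (0.148) or 287 (0.336), and the R270H call of Casp6 ended without any 1 of the lines (0.134 to 0.209). With only the 2 groups compared in the fit, each of these calls ended except that of Casp9 with R270H (adjusted p from 0.0527 to 0.242). With no filter on low counts, those of Apaf1 with I192S (0.0557) and R246Q (0.0738), Casp9 with I192S (0.0612), Pidd1 with G280 (0.0572) and Casp6 with R270H (0.085) ended. RLE size factors ended those of Casp6 with R270H (0.0506) and Casp9 with I192S (0.0509), and DESeq2 that of Casp6 (0.0749). Pidd1 with I192S was called with DESeq2 (0.67, adjusted p = 0.0384) and with RLE size factors (0.67, 0.0482). The line-specific response fit called 4 of the 8 genes with G280 (37.2% of all genes), 4 with I192S (41.6%), 4 with R246Q (39.6%) and 5 with R270H (45.3%), against 4 in the control (53.7%) and 4 in the mean of the 6 constructs (71.7%). Xiap was among those called with every construct in that fit, by 0.27 to 0.35 on the log2 scale as a mean over the lines. Its log2 CPM responses were 0.60 to 0.76 in 287, whereas in 621 the control (-0.18) and V170M (-0.07) were lower with nutlin. A call with 1 mutant and none with another is no test of a difference between them.

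**Figure D4:**
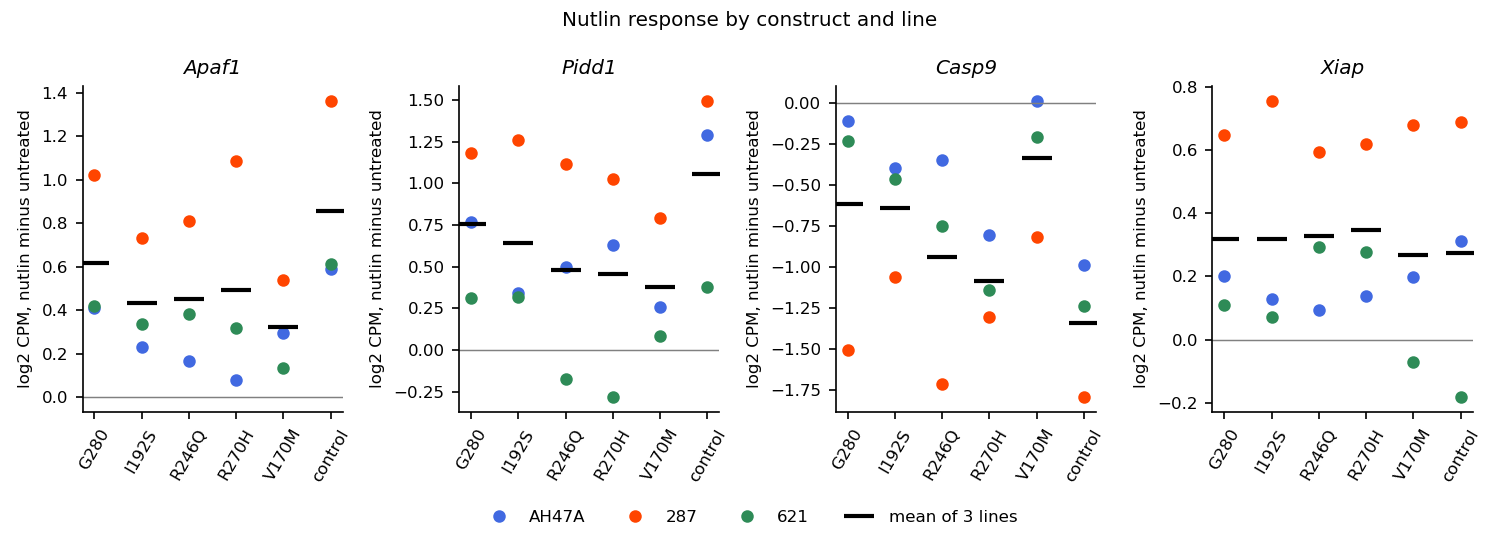
Nutlin response (y axis, log2 CPM with nutlin minus untreated) of Apaf1, Pidd1, Casp9 and Xiap by construct (x axis) and line (colours); black bars are means of 3 lines. In each line the control point lies above the 5 mutants for Apaf1 and Pidd1 and below them for Casp9, whereas Xiap shows no such order.

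Whether mutants responded less than the control was tested on the difference of the responses. In the first model no gene at all was called for the mean of 5 mutants (0% of 12321 genes; 680 genes and 2 of the 8 members, Apaf1 and Casp9, had an unadjusted p under 0.05), and DESeq2 called 1 gene and none of the 8. In 15 of 15 pairs of a mutant with the control of its line, the Apaf1 response was below that of the control, as was the Pidd1 response in 15 of 15, and the Casp9 response was above it in 15 of 15. Mutants of a line share that line's control libraries, so that these pairs are not independent. The share of all genes whose pairs all go the same way was not counted. In the line-specific response fit, 3.38% of all genes were called. Apaf1 differed by -0.40 ± 0.09 (edgeR adjusted p = 0.0136) and Casp9 by 0.63 ± 0.17 (0.0341) there, while Pidd1 had -0.52 ± 0.16 (0.0618). With lines as replicates, 8.22% of all genes were called, with -0.39 ± 0.09 for Apaf1 (limma adjusted p = 0.0109), 0.62 ± 0.14 for Casp9 (0.00905) and -0.51 ± 0.11 for Pidd1 (0.00698). Xiap differed by 0.03 ± 0.10 in the line-specific response fit (95% interval -0.17 to 0.23, adjusted p = 0.924).

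Levels under nutlin were then compared between the mutants and the control. The 5 mutants had 70.5 to 79.4 CPM of Apaf1 in AH47A, 168 to 206.5 in 287 and 77.95 to 90.3 in 621, against 99.0, 243 and 99.7 CPM in the control. Of Casp9 they had 16.0 to 22.95 CPM in AH47A, 8.195 to 17.1 in 287 and 15.3 to 27.6 in 621, against 13.8, 8.25 and 12.2 CPM. Of Pidd1 they had 49.6 to 70.5 CPM in AH47A, 93.2 to 118 in 287 and 37.2 to 61.0 in 621, against 100.5, 132 and 57.9 CPM. Apaf1 was thus below the control in 15 of 15 pairs, Pidd1 in 14 of 15 and Casp9 above it in 14 of 15, the exceptions being I192S in 621 for Pidd1 and R246Q in 287 for Casp9. The pairs of a line share its control library, and the share of all genes with such counts was not counted.

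DESeq2 called none of the 8 for this difference. In the first model it was called in 0.998% of all genes and in none of the 8, of which 4 had an unadjusted p under 0.05, beside 1895 genes in all. Casp9 was called there without line 287 (0.67, adjusted p = 0.0221) and without the G280 nutlin library of 287 (0.69, 0.0403). The line-specific response fit called 16.0% of all genes and 4 of the 8. Those were Apaf1 (-0.34 ± 0.06, adjusted p = 0.000438), Pidd1 (-0.47 ± 0.11, 0.00278), Casp9 (0.64 ± 0.13, 0.00113) and Casp8 (0.23 ± 0.08, 0.0411). With lines as replicates, 10.1% of all genes were called, and Apaf1 (limma adjusted p = 0.0158), Pidd1 (0.0107) and Casp9 (0.00509) among the 8, while Casp8 was not (0.126). Casp8 had 47.35 to 59.08 CPM in AH47A, 58.0 to 75.2 in 287 and 57.2 to 64.9 in 621 with the mutants under nutlin, against 48.8, 60.9 and 44.6 CPM in the control, and was above the control in 12 of 15 pairs. Before treatment, the mutants differed from the control in 0.0162% of all genes and in none of the 8 in the first model. None of the 8 had an unadjusted p under 0.05 there (133 genes in all), and DESeq2 called none. The line-specific response fit also called none, with 1 of the 8 at an unadjusted p under 0.05, beside 275 genes in all. With lines as replicates, untreated Casp8 was already 0.16 ± 0.05 higher in the mutants (limma unadjusted p = 0.0112, adjusted p = 0.655). The Casp8 response difference was 0.08 ± 0.11 (limma adjusted p = 0.735). For Apaf1 the untreated difference was 0.05, with a 95% interval from -0.21 to 0.31, and for Casp9 it was 0.01 (-0.37 to 0.39).

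Single mutants were compared with the control in the line-specific response fit. For V170M the response difference was called in 3.64% of all genes and reached -0.55 ± 0.12 for Apaf1 (edgeR adjusted p = 0.0111), 0.99 ± 0.21 for Casp9 (0.0106) and -0.70 ± 0.20 for Pidd1 (0.0527). It was called in 0.179% of all genes for G280, 0.00812% for I192S, 0.0243% for R246Q and 0% for R270H, and in none of the 8 for any of these. Of the 8, 2 had an unadjusted p under 0.05 with G280, 2 with I192S, 3 with R246Q and 2 with R270H. Over all genes, 1542, 963, 1392 and 1325 did so in the same order. Under nutlin, the level of Apaf1 was lower than in the control for each mutant, with log2 differences from -0.45 ± 0.08 for V170M (0.000473) to -0.27 ± 0.08 for G280 (0.0323). Pidd1 was lower for V170M (-0.61 ± 0.14, 0.00377), R246Q (-0.56 ± 0.14, 0.019) and R270H (-0.50 ± 0.14, 0.0446). Casp9 was higher for V170M (0.96 ± 0.16, 0.000142), G280 (0.72 ± 0.16, 0.00447) and I192S (0.69 ± 0.16, 0.0183). These differences under nutlin were called in 17.6% of all genes for V170M, 10.5% for G280, 2.66% for I192S, 6.06% for R246Q and 3.64% for R270H. The first model called none of the 8 for any single mutant, either in response (0% of all genes for each mutant) or under nutlin (0.479% for V170M, 0.0162% for G280, 0.0162% for I192S, 0.0325% for R246Q and 0.00812% for R270H). In that model 2 of the 8 (700 genes in all) had an unadjusted edgeR p under 0.05 for the V170M response difference. For the level of V170M under nutlin 3 of the 8 did (2005 genes in all). DESeq2 called Casp9 alone of the 8, for V170M under nutlin (0.95, adjusted p = 0.0235). With only the 2 groups compared in the edgeR fit, 3 of the 8 were called under nutlin for R246Q (11.8% of the genes then tested) and 3 for V170M (10.5%). For R246Q those were Apaf1 (adjusted p = 0.00354), Casp9 (0.0469) and Pidd1 (0.000229), and for V170M Apaf1 (0.0131), Casp9 (0.00361) and Pidd1 (0.0192). Without line 287 the first model called Casp9 under nutlin for G280 (0.87, 0.0246) and V170M (0.91, 0.0334). F tests in the first model of whether the 5 mutants differ among themselves called none of the 8, in response (0% of all genes, 63 genes at an unadjusted p under 0.05), untreated (0.0325%) or under nutlin (0.0243%), with none of the 8 at an unadjusted p under 0.05 in edgeR and none called by DESeq2. In the line-specific response fit these F tests also called none of the 8 (0% of all genes in response, 0.0812% untreated and 0.0243% under nutlin), with 1 of the 8 at an unadjusted p under 0.05 in response and 2 under nutlin, beside 270 and 1485 genes in all. The place of V170M at the end of the order is therefore a description.

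Of 40 related genes in 7 lists, 33 were tested, and in the mean nutlin response of the first model 10 rose and 16 fell, against 32.8% and 36.1% of all genes. Those called had edgeR adjusted p of 0.0412 or less. With lines as replicates limma called 2 of the 33, beside 7.36% of all genes, Xaf1 (2.90 ± 0.61, adjusted p = 0.0463) and Lmna (1.195 ± 0.235, 0.0347), both upward, and 12 had an unadjusted p under 0.05. Among other caspases, Casp4, the mouse gene of caspase-11, averaged 1.655 ± 1.83 CPM with nutlin and 0.138 ± 0.188 CPM untreated (SD, n = 18), with 14 of 36 libraries at 0 and an adjusted p of 1.1e-05. In the line-specific response fit its log2 response was 5.525 in 287 and 1.846 in AH47A, both called. In 621 the Casp4 response was 0.154 and not called, and the lines differed (edgeR F test, adjusted p = 0.00166). Casp12 had 0 counts in all 36 libraries. Of the mitochondrial activators 4 of 5 fell and none rose: Endog by 0.69 ± 0.14, Aifm1 by 0.62 ± 0.10, Cycs by 0.45 ± 0.09 and Htra2 by 0.12 ± 0.05. Cycs encodes cytochrome c, the trigger of the apoptosome, and Diablo, which encodes the XIAP antagonist SMAC, had 0.09 ± 0.04 (0.0641). Cradd, which encodes RAIDD, rose by 0.49 ± 0.08 (2.64e-06), while Ankrd26, which brings PIDD1 to the centriole, had 0.09 ± 0.08 (0.329). Casp12, Diablo and Ankrd26 were named after their values had been seen. The 4 mitochondrial activators that fell were each called downward in 287 and in 621 in the line-specific response fit. In AH47A that fit called only Aifm1 of them (-0.22, adjusted p = 0.00514). Endog had -0.06 (0.819), Cycs -0.16 (0.0602) and Htra2 0.11 (0.185) in AH47A.

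Among the inhibitors of apoptosis and XIAP partners 3 of 5 tested rose and 2 fell. Xaf1, a binding partner of XIAP, averaged 7.55 ± 7.17 CPM with nutlin and 0.559 ± 0.527 CPM untreated (adjusted p = 8.93e-08). Birc3 (cIAP2) rose by 0.62 ± 0.08 and Birc2 (cIAP1) by 0.57 ± 0.06, and Birc5 (survivin) fell by 0.47 ± 0.08. Of the partners of caspase-8, Cflar (c-FLIP) rose by 0.46 ± 0.11 and Ripk1 by 0.22 ± 0.05, while the adaptors Tradd and Fadd fell by 0.50 ± 0.07 and 0.26 ± 0.06. Of 9 partners of caspase-1, 5 were tested, Aim2, a DNA sensor, rose by 0.94 ± 0.22 and Nlrc4 fell by 0.25 ± 0.10, and the other 3 were not called. Of 10 caspase substrates 2 rose and 7 fell, including Lmna (lamin A/C, 1.34 ± 0.22), Lmnb1 (lamin B1, -0.51 ± 0.06), Xkr8 (a scramblase that caspases activate, -0.41 ± 0.08) and Bid (which caspase-8 cuts, -0.36 ± 0.07). In the control alone, 7 of the 33 rose and 10 fell, against 21.9% and 20.8% of all genes. Of the genes named in this paragraph, the line-specific response fit called Xaf1, Birc2, Lmna, Lmnb1 and Xkr8 the same way in every line. The others were not called in every line. Cflar had 1.06 in 287 against -0.11 in 621 (adjusted p = 0.422). Birc3 had 0.13 (0.274), Ripk1 0.05 (0.62) and Aim2 0.15 (0.745) in AH47A, and Fadd had -0.02 (0.874) in 621.

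**Figure D5:**
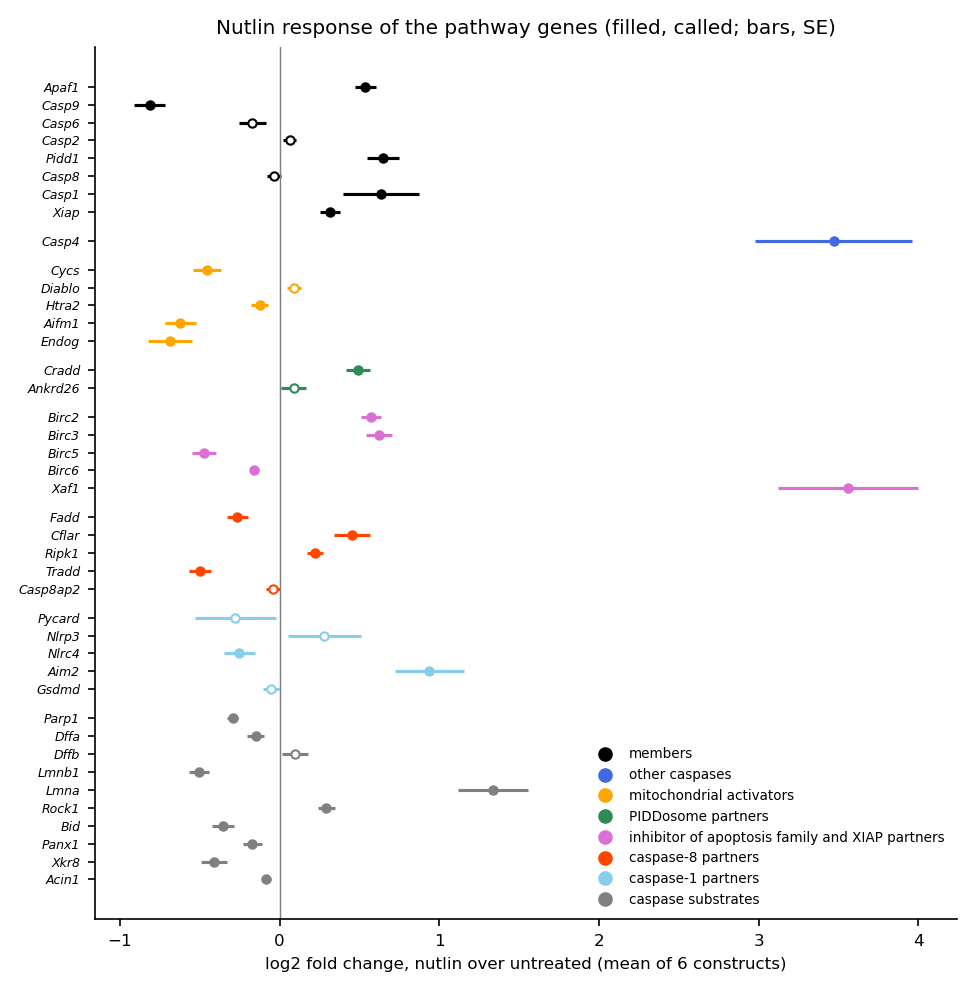
Mean nutlin response over 6 constructs (x axis, log2 fold change of nutlin over untreated) of the 8 members and the 33 related genes tested, grouped by list (colours); bars are 1 standard error and filled points were called. Casp4 (3.47) and Xaf1 (3.56) lie far to the right, and both were close to 0 CPM in untreated libraries.

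Genes most like each member were sought by the Pearson correlation of log2 CPM over the 36 libraries, which share lines, constructs and treatment, so that r is a description. Apaf1 was closest to Bfar (r = 0.975), Scyl2 (0.972) and Rbl1 (0.967). Casp9 was closest to 2610507B11Rik (0.937), Akt1 (0.934) and Gdpgp1 (0.933), and Pidd1 to Oas1f (0.937), Bsdc1 (0.937) and Unk (0.936). Xiap was closest to Parp14 (0.956), Fndc3a (0.953) and Hydin (0.951). Casp2 was closest to Cux2 (0.924), Atxn1 (0.903) and Ighv2-4 (0.902), and Casp8 to Rhobtb1 (0.814), Smtn (0.81) and Igkc (0.81). Casp1, at or near 0 in line 621, was closest to Bicd1 (0.959), Rragb (0.957) and Gadd45b (0.943), and Casp6 had no gene above 0.636 (Cbx2), followed by Lpcat3 (0.626) and Ptgs1 (0.624). No gene was among the 3 closest of more than 1 member.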

How the data were processed

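The authors deposited raw read counts per gene for the 36 libraries, made with bcl2fastq 1.8.4 and featureCounts on the mouse builds mm10 and GRCm38, per the submitters' processing notes. Per the labels' protocols, RNA was extracted with Trizol and RNeasy columns. The sources used here give no aligner, annotation or strand setting, so reads of a gene and an overlapping gene on the other strand cannot be told apart. The 859 rows without a gene symbol held 0.303% of the counts and were kept by number. The members and lists were chosen with earlier results of these data known, and 2 genes of the lists are not reported here.

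Genes were kept where filterByExpr (minimum count 10, over the 12 groups) passed them, which left 12321 genes with 99.94% of the counts. edgeR 4.0.16 in R 4.3.3 (TMM, robust quasi-likelihood) fitted the 12 groups plus cell line as a block. The biological coefficient of variation was 16%, with 22 residual degrees of freedom. The line-specific response fit added line by treatment (9.68%, 20 degrees of freedom) and takes the 6 constructs of a line as its replicates. Adjusted p-values are Benjamini-Hochberg values over all genes tested, and edgeR is the tool wherever none is named. Values after ± are standard errors for log2 fold changes and SD for levels. Log2 CPM used a prior count of 2. The fits and contrasts were run on simulated counts with known changes and a fixed dispersion. For the first model the simulated lines shared the same response. Those runs therefore do not test its p-values where lines differ in response.

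Alternatives were DESeq2 1.42.0, RLE size factors, other filters, the groups compared alone, no line block, the line-specific response fit and leaving out each library, line or construct. Lines as replicates (limma 3.58.1 over 3 lines) was an alternative chosen after seeing the data, since responses differed between lines. Libraries were paired by the line in the labels: libraries of the same line deviated together from their group means in all 198 pairs (r from 0.629 to 0.929). Named genes were the 8 members, up to 4 called genes a list with the largest change, and the 3 genes closest to each member. Motifs were searched in RefSeq windows of 250 bases. Figures were drawn with matplotlib 3.10.9.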

Additional observations from a re-analysis of the deposited data

Results flagged for a closer look

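The nutlin response of 5 of the 8 genes differed between the lines AH47A, 287 and 621 by a test of the difference itself (edgeR F test, line-specific response fit, 6 constructs a line). The adjusted p was 3.03e-07 for Apaf1, 3.03e-06 for Xiap, 4.1e-06 for Pidd1, 2.32e-05 for Casp9 and 0.00152 for Casp2. The same test called 60.3% of all genes. In 287 Apaf1, Pidd1 and Xiap rose most and Casp9 fell most of the 3 lines.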

How the results depend on the processing

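DESeq2, RLE size factors and both other filters gave 5 members called in the mean nutlin response and 5 in the lines' F test of responses, as in the main settings. Those main settings called 69.0% and 60.3% of all genes, and the shares under these alternatives are not given here. For single mutants and pairs of lines, fits of only the groups compared ended 8 calls of a member and gained 6, no filter on low counts ended 6, DESeq2 ended 2 and gained 2, and RLE size factors ended 2 and gained 1, their values standing beside the results. With lines as replicates in limma, 0 members were called in the mean response, against 5 in the first model, and 907 against 8499 genes in all. Of the response difference of the 5 mutants, 2 members were called in the line-specific response fit and 3 with limma, against 0 (416 and 1013 against 0 genes). Of their difference under nutlin, 4 were called in the line-specific response fit and 3 with limma, against 0 (1969 and 1239 against 123 genes, and 209 with DESeq2). Without the replicate block, 1 member was called in the control's response, against 3, and 1423 against 5260 genes, and 4 members in the mean response. That took the calls of Apaf1 (adjusted p = 0.179) and Pidd1 (0.0551) in the control, of Casp1 in the mean response, and every call of G280, I192S, R246Q and R270H except that of Casp9 with R270H. Leaving out 1 library or line gave 4 to 6 members called in the mean response, 2 to 4 in the control, 0 to 1 in the difference under nutlin, and 0 in the response difference and untreated. For the lines' F tests the ranges were 5 to 6 in response and 6 to 8 untreated. Shares of all genes are not given for these leave-outs. No called value changed sign under any of these alternatives. Casp6 and Casp1 had the fewest counts of the 8. The cause of these changes was not tested.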
